A study of Mus musculus with 10 samples.

Results

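The nuclear genes of mitochondrial oxidative phosphorylation were followed across neurons of the paraventricular hypothalamus (PVH), the nucleus that holds oxytocin and vasopressin neurons along with neurons that release corticotropin-releasing and thyrotropin-releasing hormone. Members were chosen by symbol, as nuclear genes named Nduf, Sdh, Uqcr, Cox4 to Cox8 or Atp5 without pseudogene suffix, and by level, as a mean of at least 0.1 unique molecular identifiers (UMIs) per cell of the authors' table of kept cells. Of 83 matching symbols, 79 passed, in a table of 48397 genes of which 15786 had that mean. The level floor is a mean over all kept cells and was not set by cluster or plate. A single group of cells, or the deeper plates, can still carry a member past this floor. The symbols below it were Cox4i2 (5 UMIs in 3 cells), Cox6a2 (38 UMIs in 6 cells), Cox8b and Cox8c, the last pair with 0 UMIs in 706 cells, so that up to 0.425% of cells could hold a UMI of them. Just above it lay Cox6b2 at 0.146 UMIs per cell (13 cells), Cox7b2 at 0.334 (21 cells) and Cox7a1 at 2.01 (169 cells).

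The cells came from male mice older than 7 weeks that carried Agrp-IRES-Cre (Agrptm1(cre)Lowl/J) and the Ai9 reporter (Gt(ROSA)26Sortm9(CAG-tdTomato)Hze/J on B6.Cg), so Cre was driven from the Agrp locus and tdTomato marked cells of that line. The labels call the picked cells labelled neurons, whereas the study's methods use the tdTomato-filled AGRP axons to draw the border of the PVH and then pick single cells by hand. There was a single condition, and all cells shared these alleles and an incubation with blockers of neuronal activity. The samples were 10 plates, of which 4 are titled with the prefix Q, 2 with AL and 4 with JM, and the replicate throughout was the plate. The sources used here do not say which animals lie on which plate, so p-values measure the spread between plates, part of which may be technical. The authors kept 706 cells in 15 clusters. Of these cells, 664 lay in 12 PVH clusters, 332 of them in clusters 1 to 4, which the study calls magnocellular, and 42 lay in clusters 5, 6 and 11, which it set aside as lying outside the PVH. The clusters were drawn by the authors from expression in these same cells, so a difference between clusters is a description with a spread and not an independent test.

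Oxidative phosphorylation is the last stage of respiration in mitochondria. Complex I (the Nduf genes) takes electrons from NADH and complex II (the Sdh genes, also the succinate dehydrogenase of the citrate cycle) takes them from succinate. Complex III (Uqcr genes) passes them to cytochrome c, and complex IV (Cox genes) passes them to oxygen. Complexes I, III and IV pump protons, and complex V (Atp5 genes) is the ATP synthase that uses the gradient. A few core subunits are encoded by mitochondrial DNA, and all others, the genes followed here, are nuclear. Neurons rely on this pathway to pay for ion pumping and transmitter release, and magnocellular neurons in addition make and ship large amounts of peptide. Several complex IV subunits exist as pairs of genes, a common form and a form known from other tissues, which is heart and skeletal muscle for Cox6a2, Cox7a1 and Cox8b, lung for Cox4i2, and testis for Cox6b2, Cox7b2 and Cox8c.

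Nuclear subunit genes are known to share promoter elements, so the promoters of members that the results turn on are shown here. RefSeq promoters of GRCm38.p6, which span 250 bases before to 50 after a start, were found for 68 of the 79 members. Both strands were searched for fixed letters. The motif of nuclear respiratory factor 1 (NRF1, GCGCA and GCGC set 1 base apart) was found in 24.3% of 74 member promoters and 4.60% of all 32851 promoters. The Ets motif bound by the GABP factor (CCGGAAG) was in 21.6% of member promoters and 8.86% of all, the YY1 motif (AAGATGGC) in 16.2% and 2.75%, and the oestrogen-related receptor motif (AAGGTCA) in 10.8% and 4.72%. The CCAAT box (CCAAT) was in 43.2% and 37.4%, and the TATA box (TATAAA) in 9.46% and 13.6%. These shares describe letters and carry no test. The 200 bases before the RefSeq start follow for 6 members, with matches on either strand in capitals, none of which overlaps another.
Atp5h: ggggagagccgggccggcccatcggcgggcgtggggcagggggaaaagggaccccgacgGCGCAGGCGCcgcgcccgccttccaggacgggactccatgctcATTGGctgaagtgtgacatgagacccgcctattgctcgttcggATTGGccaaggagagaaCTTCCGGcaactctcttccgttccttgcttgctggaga
Atp5k: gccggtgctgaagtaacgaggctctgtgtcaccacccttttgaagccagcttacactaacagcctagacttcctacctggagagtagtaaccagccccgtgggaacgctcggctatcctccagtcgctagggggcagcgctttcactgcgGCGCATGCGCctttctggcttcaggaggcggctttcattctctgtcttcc
Cox7a1: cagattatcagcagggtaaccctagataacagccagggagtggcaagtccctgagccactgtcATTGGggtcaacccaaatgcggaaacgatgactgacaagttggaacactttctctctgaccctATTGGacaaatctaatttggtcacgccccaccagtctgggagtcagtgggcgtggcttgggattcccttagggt
Ndufb11: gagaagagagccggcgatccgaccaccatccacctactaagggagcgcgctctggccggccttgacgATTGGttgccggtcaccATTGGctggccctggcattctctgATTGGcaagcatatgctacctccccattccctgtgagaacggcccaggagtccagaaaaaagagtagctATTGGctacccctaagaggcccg
Cox7c: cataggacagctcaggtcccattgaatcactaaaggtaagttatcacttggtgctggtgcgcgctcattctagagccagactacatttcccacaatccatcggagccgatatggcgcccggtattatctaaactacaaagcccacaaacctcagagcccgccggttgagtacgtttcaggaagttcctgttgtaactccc
Cox7a2l: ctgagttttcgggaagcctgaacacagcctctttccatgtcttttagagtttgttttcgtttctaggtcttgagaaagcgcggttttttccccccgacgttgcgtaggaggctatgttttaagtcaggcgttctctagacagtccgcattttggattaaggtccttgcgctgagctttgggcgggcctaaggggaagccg
The windows are those of Atp5h (chr11:115419920-115420119, minus strand), Atp5k (chr5:108434400-108434599, minus), Cox7a1 (chr7:30183971-30184170, plus), Ndufb11 (chrX:20617620-20617819, minus), Cox7c (chr13:86046796-86046995, minus) and Cox7a2l (chr17:83514334-83514533, minus). That of Atp5h held an NRF1 match 141 bases before the start, CCAAT boxes at 98 and 55 and an Ets match at 38. Atp5k held an NRF1 match at 50 bases before its start, Cox7a1 held CCAAT boxes at 137 and 74, and Ndufb11 held 4 CCAAT boxes. None of the searched letters occurred in the windows of Cox7c and Cox7a2l.

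Of the 79 members, 35 belong to complex I, 4 to complex II, 8 to complex III, 15 to complex IV and 15 to complex V, with Ndufa4 counted in complex IV, where it is now placed. Atp5s and Atp5sl carry the name but are not subunits of the synthase, and were counted apart. A UMI of 67 members was found in more than 90% of cells, and of 4 members in fewer than 50%, and the median member was found in 98.6% of cells. Levels are given as CPM, the UMIs of a gene per 1000000 UMIs of the summed cells of a plate. CPM counts tagged molecules and was not divided by length, so it was compared within a gene, and values of different genes are only listed. Over PVH cells of the 10 plates, Cox4i1, a regulatory subunit of complex IV, stood at 2659 ± 624 CPM (mean ± SD, n = 10), the highest in its complex. The highest in the other complexes were Atp5h of the peripheral stalk of the synthase at 1245 ± 544, Ndufv2 of the NADH-oxidizing arm of complex I at 1018 ± 99.8, the iron-sulfur subunit Sdhb of complex II at 520.2 ± 66.4, and the Rieske protein Uqcrfs1 of complex III at 489 ± 35.2. The lowest were Cox6b2 at 0.861 ± 0.865, Atp5l at 19.8 ± 10.7, Ndufb4 at 39.0 ± 24.4, the membrane anchor Sdhc at 103 ± 19.96 and Uqcr11 at 165 ± 120, against 28.7 ± 11.8 for Atp5s, 56.8 ± 32.1 for Atp5sl and 1044 ± 464 for Ndufa4. The SD over plates was thus small for Ndufv2 and Uqcrfs1 and large for Atp5h, Ndufa4 and Uqcr11.

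Plates differed in depth and in cell makeup. Cells had between 50646 and 1078101 UMIs (median 128672), each plate gave 43 to 87 kept cells, and plate medians ran from 188176 to 283709 UMIs on Q plates and from 69514 to 127829 on AL and JM plates. Clusters were spread unevenly over them: cluster 8 had 40 of its 42 cells on Q plates and cluster 2 had 48 of 53, while cluster 3 had 1 of 36 and clusters 4, 12 and 13 had none there. The 4 neuronal markers, Snap25, Syt1, Tubb3 and Elavl4, were all detected in both sets of PVH cells, at summed levels of 1093 to 2126 CPM in clusters 1 to 4 and 1146 to 3188 CPM in the other PVH clusters. All 3 PVH markers (Sim1, Otp, Slc17a6) were detected as well. The 7 neuropeptides together took 36596 to 91416 CPM in clusters 1 to 4 and 3268 to 8524 CPM in the others, whereas the 3 markers of GABA neurons (Gad1, Gad2, Slc32a1) reached at most 15.5 CPM in clusters 1 to 4 and 132 CPM in the others. Markers of astrocytes (5 genes) summed to at most 11.3 CPM in clusters 1 to 4 and 13.9 in the others, of microglia (4 genes) in the same order to 0.305 and 5.93, of endothelial cells (3 genes) to 2.83 and 3.58, and of oligodendrocyte precursors (2 genes) to 0.146 and 0.847. Oligodendrocyte markers (5 genes) summed to 17.98 to 47.3 CPM in clusters 1 to 4 and 9.61 to 180 CPM in the others, led by Mbp, a myelin gene, with a UMI in 38.9% and 26.5% of cells. By prefix, over all PVH cells, the PVH markers summed to 276 to 643 CPM on Q plates and 1036 to 1492 CPM on AL and JM plates. Neuronal markers summed to 1122.5 to 1872 and 1973 to 2400 CPM in the same order. Neither list overlapped between prefixes. The 7 neuropeptides summed to 39879 to 66912 and 18677 to 57028 CPM, which overlapped. The part of other cell types in the results below was not tested.

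The difference between plate prefixes was the widest one for the members and touches every comparison of clusters. On Q plates 57 of 79 members were higher and 3 were lower than on AL and JM plates, against 11.6% of all 14334 tested genes higher and 11.1% lower (edgeR quasi-likelihood test on UMIs summed per plate, adjusted p under 0.05). The median log2 fold change was 0.99 over members and -0.04 over all genes. Every Q plate lay above every AL and JM plate for 46 of 79 members, which held for 6.03% of all genes, and below for 7 members, which held for 13.7%. Prefix, depth, sequencing run and animals cannot be told apart here. The labels and the study's methods also name different sequencers and library kits, without saying which plates each covers.

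By complex, 29 of 35 members of complex I were higher on Q plates, as were 5 of 8 of complex III, 12 of 15 of complex IV and 9 of 15 of complex V, but 1 of 4 of complex II. Cox7a1, the muscle-type form of subunit VIIa, stood at 18.8, 18.4, 12.3 and 11.6 CPM on the Q plates and at 1.22 to 5.76 CPM (median 2.78) on the 6 others, a log2 change of 2.51 ± 0.44 (SE, edgeR adjusted p = 0.000594). Atp5k, subunit e of the synthase, stood at 261, 204, 160 and 115 CPM on Q plates and at 19.1 to 61.4 (median 37.1) on the others, a change of 2.48 ± 0.29 (edgeR adjusted p = 2.05e-05). Ndufa3, an accessory subunit of complex I, stood at 461, 395, 315 and 232 CPM against 49.9 to 114 (median 80.1), a change of 2.35 ± 0.26 (edgeR adjusted p = 1.46e-05). The 2 kinds of plate did not overlap for any of these members. The 3 members lower on Q plates were all large core subunits. Sdha, the flavoprotein of complex II, stood at 243, 234, 314 and 235 CPM on Q plates and at 452 to 586 (median 496) on the others, and its log2 fold change was -0.75 ± 0.12 (edgeR adjusted p = 0.000304). Ndufs1, the largest subunit of complex I, had 43.7 to 65.7 CPM on Q plates against 88.3 to 122 (log2 fold change -0.64 ± 0.17, edgeR adjusted p = 0.0106), and Atp5a1, the alpha subunit of the synthase, had 598 to 948 against 1192 to 1303 (-0.55 ± 0.12, edgeR adjusted p = 0.00286). Those groups did not overlap either.

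The difference was present within a cell type. Among cells of cluster 1 alone, the cluster best spread over both kinds of plate, 55 members were higher on Q plates and 1 lower, of 77 tested, against 6.56% and 4.51% of all genes in the same fit. Among PVH cells outside clusters 1 to 4 the counts were 49 and 3 of 77, against 8.87% and 7.3% of genes. After thinning every cell to 63046 UMIs they were 52 and 3, against 11.4% and 10.5%, and with cluster as a term in the fit 57 and 2, against 7.41% and 6.32%. These 4 settings were chosen after the data had been seen.

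The size of the prefix difference went with transcript length, taken as the median length of a gene's coding transcripts in GENCODE vM21 (median over members 648 bases). This median counts partial transcripts too, and so places Ndufs1 under 750 bases. This relation too was looked for after the data had been seen. The 12 members of up to 500 bases had a median log2 fold change of 1.96 on Q over AL and JM plates, the 35 of 500 to 750 bases 1.34, the 13 of 750 to 1000 bases 0.71, the 13 of 1000 to 1500 bases 0.22 and the 5 longer ones -0.22. All but 1 of these ranges hold fewer than 20 members. Other genes of the same lengths had medians of 0.29, 0.30, 0.17, 0.08 and -0.15. Spearman's rho between length and fold change was -0.61 over 78 members and -0.11 over 11731 other genes. It is a description across genes, which share plates and are not replicates. The 13 subunits encoded by mitochondrial DNA took 2.19% ± 0.0998 of UMIs on Q plates (SD, n = 4) and 2.40% ± 0.172 on AL and JM plates (n = 6).

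**Figure D1:**
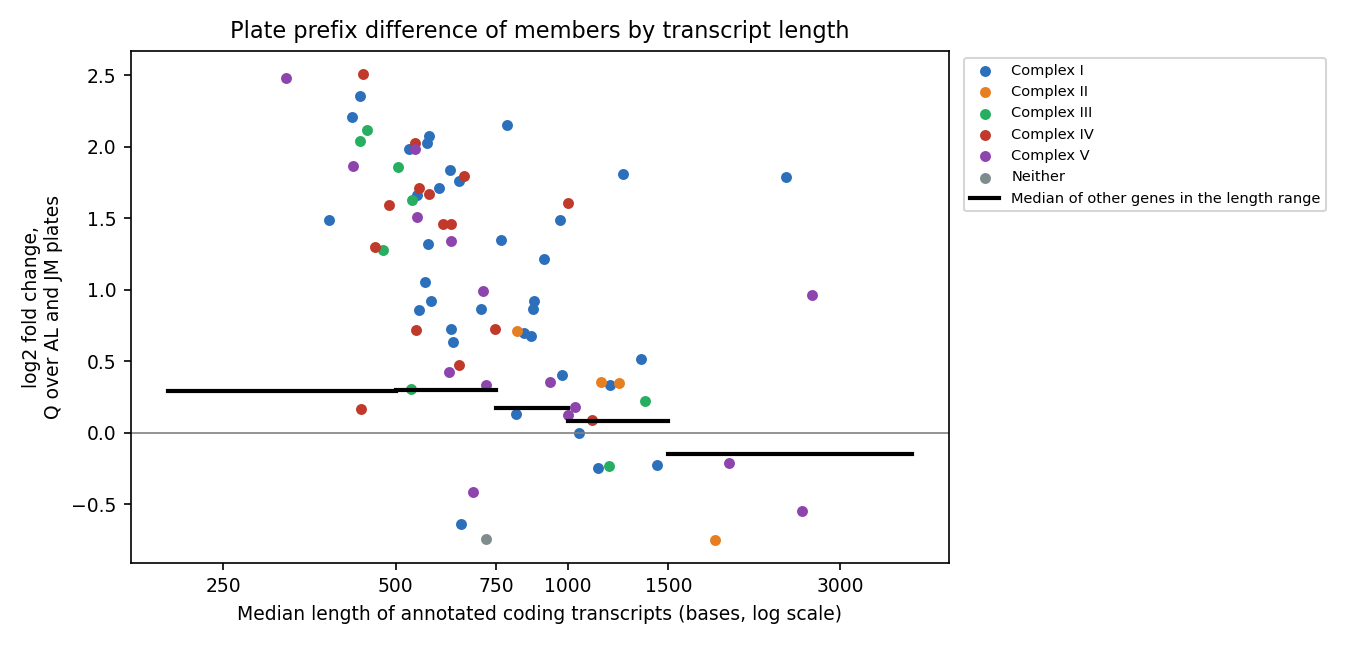
Log2 fold change of each member on Q over AL and JM plates (vertical axis) against its transcript length in bases (horizontal axis, log scale), coloured by complex, with black bars for the median of all other genes in 5 length ranges. Members under 750 bases lie mostly above the bars, and the 5 members over 1500 bases have a median of -0.22.

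As a whole, the subunits took 3.59% ± 0.965 of the UMIs of PVH cells (SD, n = 10), counting the 77 members that belong to a complex. The share was 5.36%, 4.57%, 4.09% and 4.26% on the Q plates in the order Q5 to Q8, and between 2.30% and 3.63% (median 2.94%) on the 6 others. Q plates lay above all others. Cell groups were then compared within plates. In clusters 1 to 4 it was below that of the other PVH clusters on 8 of 10 plates, with a mean log2 ratio of -0.08 ± 0.12 (SD, n = 10), where the neuropeptides above also take part of the total. Cluster 14 was above the other PVH cells on 7 of 8 plates (log2 ratio 0.20 ± 0.15) and cluster 15 on 8 of 8 (0.12 ± 0.08). Cluster 9 was below on 4 of 4 (-0.25 ± 0.08), cluster 3 on 5 of 5 (-0.20 ± 0.07), cluster 4 on 5 of 5 (-0.18 ± 0.06) and cluster 10 on 7 of 7 (-0.16 ± 0.12). Clusters 1, 7, 12 and 13 had mean ratios between 0.01 and 0.04, within their SDs. A share of all UMIs and the TMM-scaled fits did not always point the same way. In cluster 15 the median TMM-scaled log2 fold change over members was -0.13, with 19 of 76 members above 0, and in cluster 14 it was 0.02, with 40 of 77 above 0, beside medians over all genes of -0.50 and -0.39. Set against the spike-in RNA added to every well, UMIs of the subunits per spike-in UMI were 1.44 ± 0.444 times as high in cells of clusters 1 to 4 as in the other PVH cells (higher on 9 of 10 plates), and UMIs of all genes 1.5 ± 0.353 times (9 of 10).

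**Figure D2:**
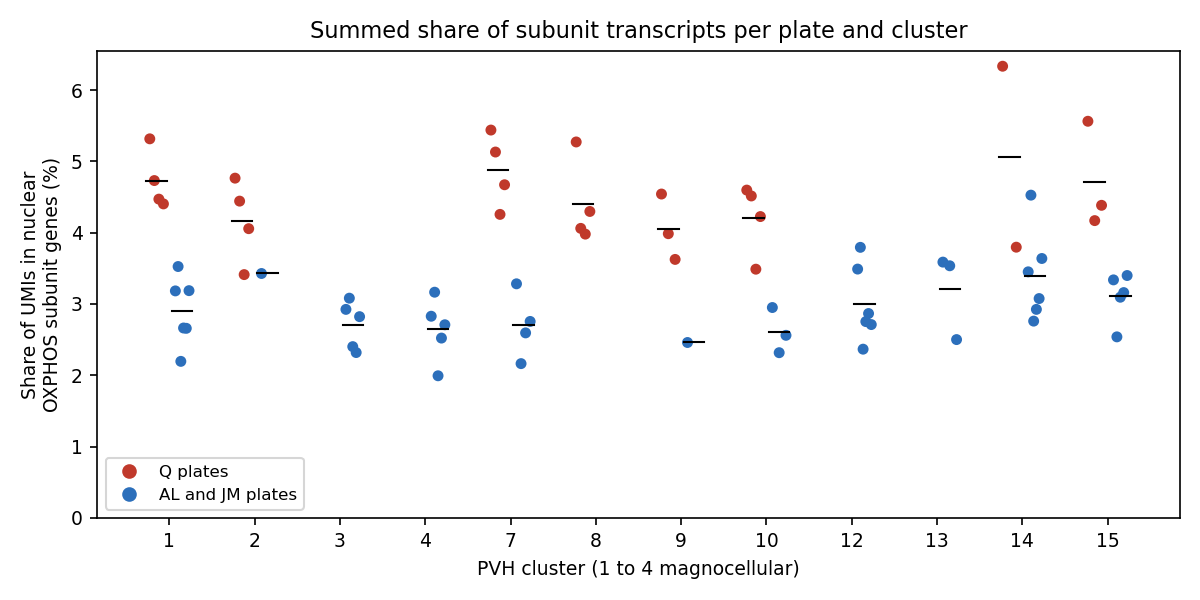
Share of UMIs in nuclear subunit genes (vertical axis, %) for each PVH cluster (horizontal axis). Each point is a plate with at least 3 cells of the cluster, red for Q and blue for AL and JM plates, and lines are means. Within most clusters the red points lie above the blue ones, with means from 4.17% against 3.43% in cluster 2 to 4.88% against 2.70% in cluster 7. The blue value in cluster 2, and likewise in cluster 9, is a single plate, JM8. Among red points the cluster means run from 4.05% in cluster 9 to 5.07% in cluster 14.

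Single members differed among the 12 PVH clusters. In a test of any difference among clusters with plate as a block (edgeR, 73 sums of plate and cluster with at least 3 cells), 32 of the 77 members tested passed at an adjusted p under 0.05, against 21.2% of all 13082 genes tested. Cox6b2 and Cox7b2 fell to the filter on low counts. The share passing was highest in complex IV, with 11 of 13 tested, and lowest in complex III, with 1 of 8. Complex I had 12 of 35, complex II 2 of 4 and complex V 6 of 15, and neither Atp5s nor Atp5sl passed. The median level of a member was 376 CPM, and no share for genes of similar level is given, here or in the other fits. With Q plates alone 3 of 79 members passed, against 3.21% of genes, so the members were then close to all genes. With AL and JM plates alone 15 of 76 passed, against 14.6% of genes.

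The 10 members with the smallest p came from complexes I, IV and V, and each was set against the other PVH cells of the same plates, cluster by cluster. Atp5o, the synthase subunit that links head and stalk (edgeR adjusted p = 1.58e-07), ranged from a log2 fold change of 0.22 in cluster 14 to -0.90 in cluster 10. Atp5h (edgeR adjusted p = 1.55e-06) ranged from 0.31 in cluster 1 to -0.90 in cluster 9, and the catalytic beta subunit Atp5b (7.85e-05) from 0.26 in cluster 14 to -0.55 in cluster 9. The alpha subunit Atp5a1 (edgeR adjusted p = 0.00029) ranged from 0.21 in cluster 1 to -0.79 in cluster 9. Synthase members thus had their low ends in clusters 9 and 10. Of complex IV, Cox5a (edgeR adjusted p = 2.01e-06) ranged from 0.36 in cluster 14 to -0.89 in cluster 3, Cox6c (6.04e-05) from 0.58 in cluster 7 to -0.66 in cluster 9, and Cox6a1 (0.000277) from 0.34 in cluster 1 to -0.99 in cluster 10. Of complex I, Ndufv3 (edgeR adjusted p = 5.59e-06), an accessory subunit of the NADH-oxidizing arm, ranged from 0.40 in cluster 7 to -0.93 in cluster 4. Its neighbour Ndufv2 (0.000314) ranged from 0.30 in cluster 14 to -0.90 in cluster 9, and Ndufa5 (0.000898) from 0.28 in cluster 1 to -0.70 in cluster 13. High ends lay in clusters 1, 7 and 14 for all 10. The adjusted p beside each gene is that of the test of any difference and not of its ends. Some ends passed in the fit of their own cluster, such as Atp5o in cluster 10 (edgeR adjusted p = 0.000616). Others did not, such as Atp5o in cluster 14 (0.411), Ndufv3 in cluster 4 (0.216) and Ndufa5 in cluster 13 (0.313). The fold changes are scaled by TMM, and the median over all genes was itself below 0 in each single PVH cluster, from -0.08 in cluster 1 to -0.82 in cluster 9.

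**Figure D3:**
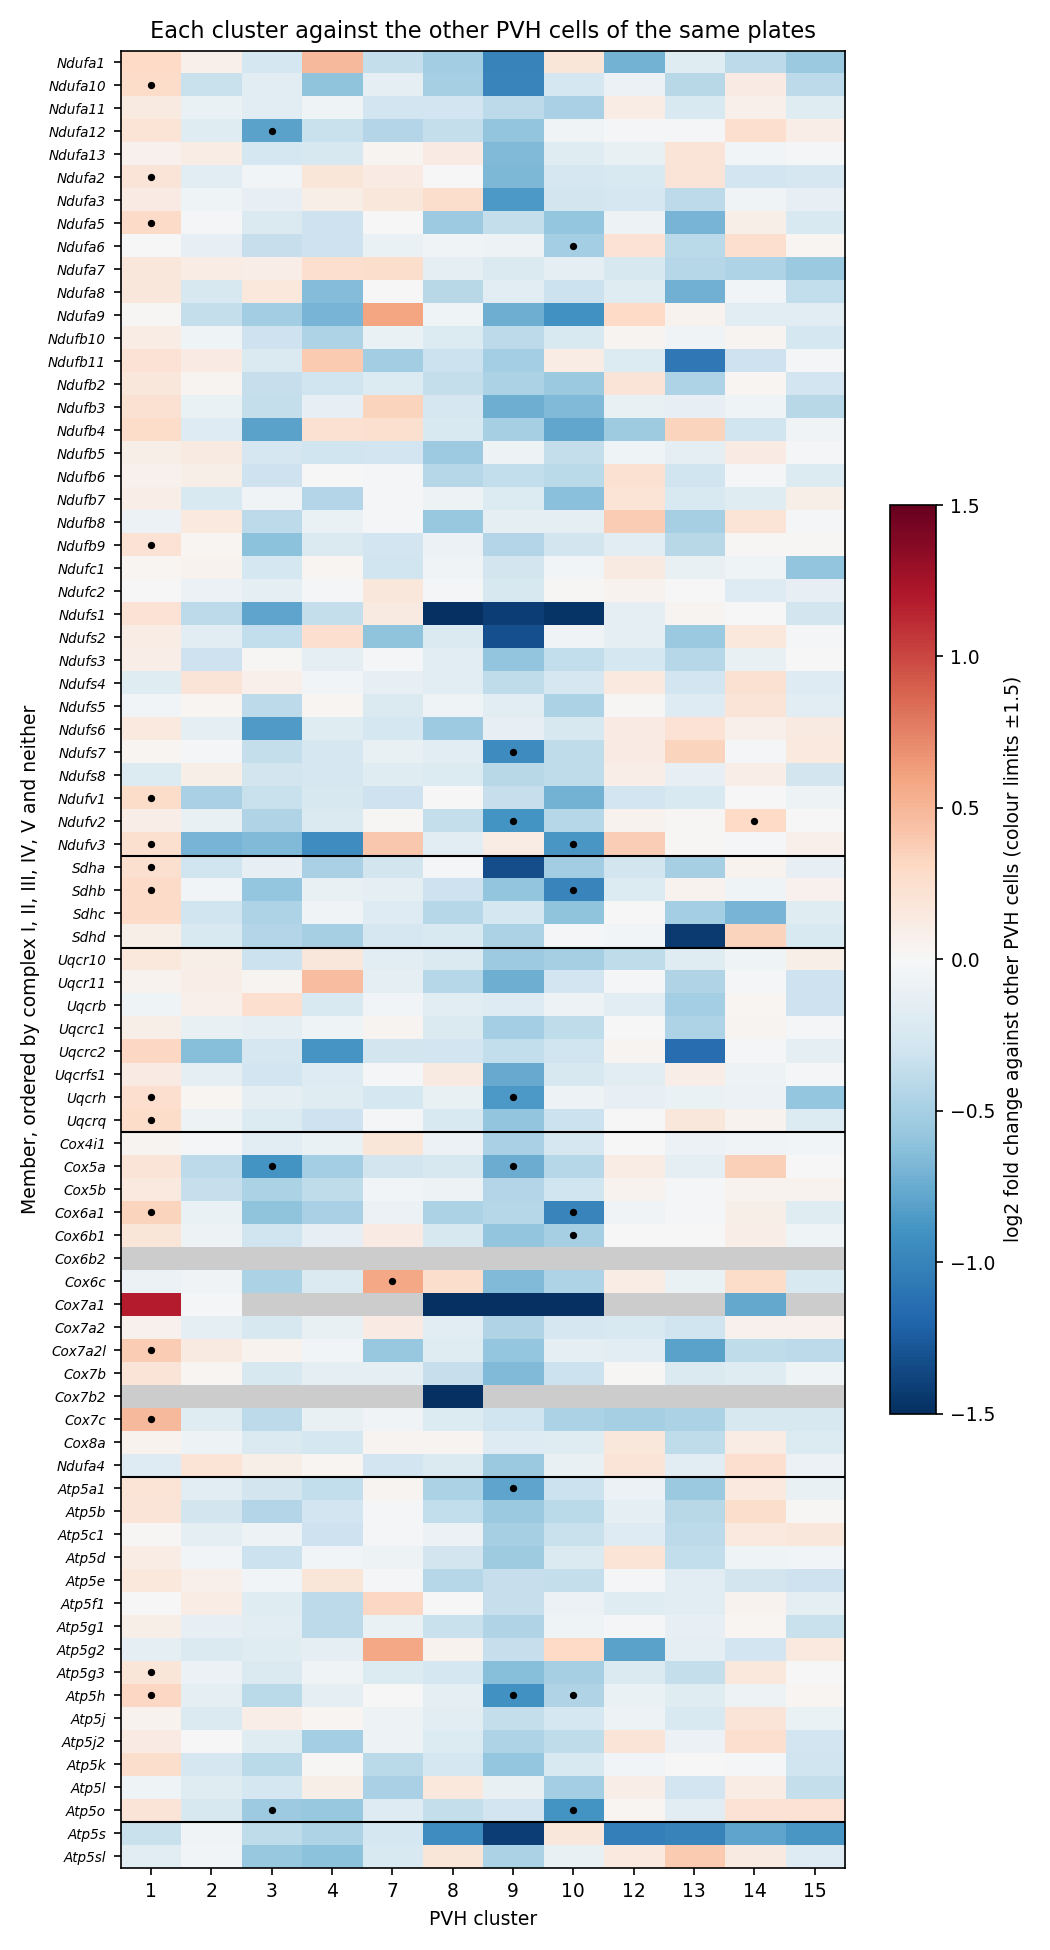
Log2 fold change of each member (vertical axis, ordered by complex) in each PVH cluster (horizontal axis) against the other PVH cells of the same plates, red for higher and blue for lower, grey where not tested. Dots mark an edgeR adjusted p under 0.05 and lie mostly in clusters 1, 9 and 10.

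The study names clusters 1 to 4 magnocellular, and the members were compared between these and the other PVH clusters on each plate. Of 77 members tested, 7 were higher, against 7.53% of all 11805 genes tested, and 0 were lower, against 6.51% (edgeR with plate as a block, adjusted p under 0.05). The share of members was close to that of all genes. At an unadjusted p under 0.05 there were 19, or 24.7%, against 25.2% of genes, and DESeq2 gave 7 higher and 1 lower, against 10.3% and 9.83%. The median log2 fold change was 0.06 over members and 0.02 over all genes. Of the 7, 3 belong to complex I, 3 to complex IV and 1 to complex V.

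Of complex IV, Cox7a2l, a relative of subunit VIIa that is known to join complexes III and IV into supercomplexes, stood at 491 to 741 CPM (median 579) in clusters 1 to 4 and at 375 to 568.4 (median 465) in the others, higher on 9 of 10 plates. Its log2 fold change was 0.43 ± 0.07 (edgeR adjusted p = 0.000178), and it passed in 23 of 24 alternatives, the exception being Q plates alone (0.44, adjusted p = 0.0725). Cox7c, a small subunit of complex IV, stood at 76.9 to 635 CPM (median 215) against 68.6 to 609 (median 186). The ranges overlapped, since levels differed more between plates than between groups, but within plates it was higher on 10 of 10, by 0.36 ± 0.07 (edgeR adjusted p = 0.00181). Clusters 2 to 4 did not share this rise when each cluster was set against all other PVH cells of its plates. The log2 fold change of Cox7c was 0.48 in cluster 1, which holds 221 of the 332 cells, and -0.18, -0.39 and -0.12 in clusters 2, 3 and 4. Cox7a1 stood at 2.12 to 20.8 CPM (median 5.76) against 0.534 to 17.2 (median 3.09), with a log2 change of 1.47 ± 0.44 (SE, edgeR adjusted p = 0.0332), the largest of the 7, at a level of few UMIs.

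Of complex I, Ndufa1, an accessory subunit encoded on the X chromosome, stood at 41.9 to 309 CPM (median 82.3) against 19.9 to 242 (median 71.4), higher on 8 of 10 plates, with a change of 0.40 ± 0.11 (edgeR adjusted p = 0.0225). Ndufb11, also X-linked, stood at 172 to 452 CPM (median 261) against 117 to 476 (median 247), higher on 6 of 10 plates, with a change of 0.32 ± 0.09 (edgeR adjusted p = 0.0271). Ndufa7 stood at 76.9 to 537 CPM (median 199) against 58.1 to 544 (median 175), higher on 8 of 10 plates, with a change of 0.26 ± 0.08 (edgeR adjusted p = 0.0448). All 3 overlapped between groups over the plates. In complex V, Atp5h stood at 607 to 2115 CPM (median 1032) against 615 to 2068 (median 1061), higher on 6 of 10 plates, with a change of 0.19 ± 0.05 (edgeR adjusted p = 0.0244). Here the CPM medians, which leave aside the pairing within plates, and the fold change pointed in opposite directions. TMM sets aside the part of the total that a few abundant genes take up, and CPM does not. How much of the contrast for Atp5h comes from scaling or from the pairing was not tested. Set singly against all other PVH cells, Atp5h was at 0.31 in cluster 1 and at -0.14, -0.40 and -0.13 in clusters 2, 3 and 4. With totals freed of Oxt and Avp in place of TMM the counts were 5 higher and 1 lower, against 6.9% and 7.41% of genes.

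Most of these calls rested on all plates together. Within Q plates only Ndufa5 passed of 78 members (0.43, edgeR adjusted p = 0.0407), where 2.33% of genes were called. Within AL and JM plates, where 11.7% of genes were called, Cox7a2l was higher (0.42, edgeR adjusted p = 0.00579) and Cox5a (-0.32) and Ndufs8 (-0.30) were lower, of 76 members. Without plate Q7 2 members passed, and without Q6 or JM6 4. Ndufa7 passed in 5 of 24 alternatives, Atp5h in 13, Ndufa1 and Ndufb11 in 14, Cox7c in 18 and Cox7a1 in 13 of 22. Scaled to spike-in RNA, 57 members were higher, against 24.5% of genes, and 0 lower, where the median over all genes rose to 0.44. A test of whether the magnocellular difference itself changed between prefixes called 0 of 77 members, against 0.0932% of 11805 genes by edgeR and 2 members by DESeq2, against 1.08%. At an unadjusted p under 0.05 there were 21 members, or 27.3%, against 8.19% of genes. The difference was above 0 for 67 of the 77 members, with a median of 0.15, and for 53.7% of all genes, with a median of 0.05, where a value above 0 means a larger log2 fold change on Q plates. Cox5a came nearest, with a difference of 0.57 ± 0.11 between the log2 fold changes, Q over AL and JM (edgeR adjusted p = 0.0611). The groups compared do not hold the same clusters on both kinds of plate. Q plates had 48 of 53 cells of cluster 2, but 1 of 36 of cluster 3 and 0 of 22 of cluster 4. Cox5a was at -0.89 in cluster 3 and -0.51 in cluster 4. Prefix and cluster makeup cannot be told apart in this difference.

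**Figure D4:**
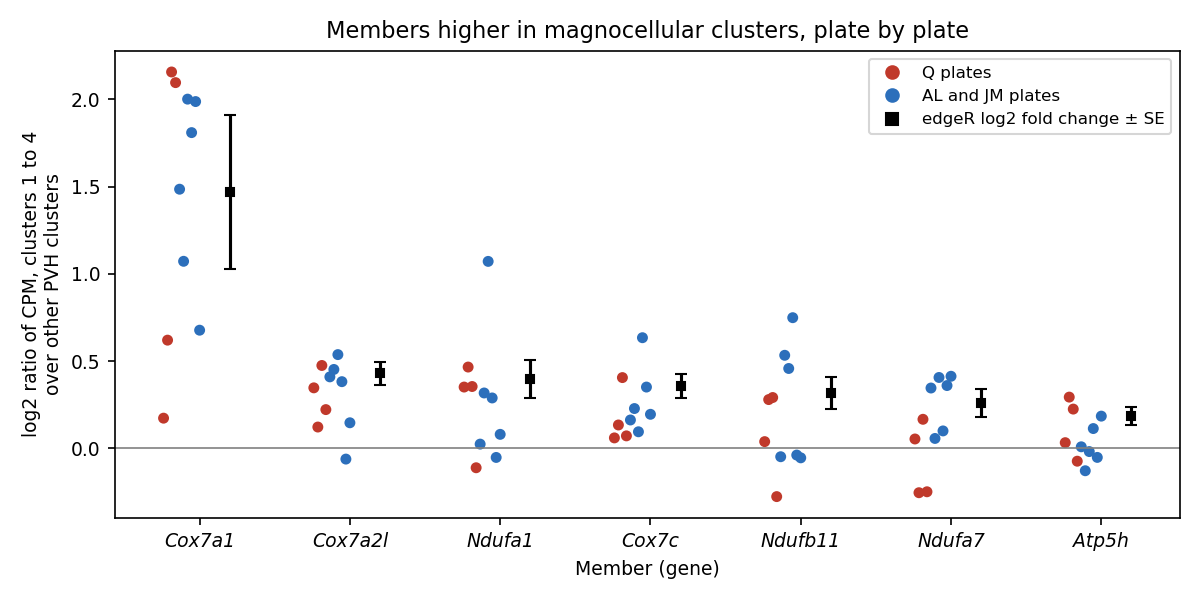
Log2 ratio of CPM in clusters 1 to 4 over the other PVH clusters (vertical axis) for the 7 members past the threshold (horizontal axis). Points are plates, red for Q and blue for AL and JM, and black squares are the edgeR log2 fold change ± SE. Cox7c lies above 0 on 10 of 10 plates and Cox7a2l on 9 of 10, and the squares lie above the centre of the points.

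Single clusters were also set against all other PVH cells of their plates. Cluster 1, the largest with 221 cells and present on all plates, had 15 of 77 members higher, against 5.6% of 11867 genes, and 0 lower, against 6.3% (edgeR). At an unadjusted p under 0.05 there were 33 members, or 42.9%, against 23.7% of genes, and DESeq2 called 24 higher and 0 lower, against 8.38% and 10.3% of genes. Cluster 1 had a median over members of 0.13 against -0.08 over all genes. These fits are scaled by TMM. As a share of all UMIs, the subunits in cluster 1 lay close to the other PVH cells, at a mean log2 ratio of 0.01 ± 0.10 (SD) and higher on 5 of 10 plates. The 15 came from each complex, with 6 of complex I, 2 each of complexes II, III and V and 3 of complex IV. Cox7c stood at 77.1 to 653 CPM (median 228) in cluster 1 and at 73.0 to 583 (median 183) in the other cells, higher on 10 of 10 plates, with a log2 change of 0.48 ± 0.07 (SE, edgeR adjusted p = 0.000264). Cox7a2l changed by 0.38 ± 0.06 (edgeR adjusted p = 0.000613) and was higher on 9 of 10 plates, and Cox6a1, the common form of subunit VIa, by 0.34 ± 0.10 (adjusted p = 0.0314) on 7 of 10. Both dehydrogenase subunits of complex II, Sdha (0.24 ± 0.07) and Sdhb (0.29 ± 0.09), were among the 15.

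In 2 further clusters a single member was higher, a share close to that of all genes in each. In cluster 7 it was Cox6c of 76 members tested, against 1.11% of genes, at 183 to 1074 CPM (median 639) against 132 to 750 (median 384) and higher on 8 of 8 plates (0.58 ± 0.13, edgeR adjusted p = 0.00767). In cluster 14 it was Ndufv2 of 77, against 1.42% of genes, at 1030 to 1571 CPM (median 1322) against 874 to 1136 (median 975) and higher on 7 of 8 plates (0.30 ± 0.08, edgeR adjusted p = 0.0493).

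Clusters 3, 9 and 10 had members that were lower. In cluster 3 there were 3 of 76, against 1.91% of genes. Cox5a stood at 722, 646, 502, 374 and 494 CPM in cluster 3 and at 977, 1108, 836, 955 and 958 in the other PVH cells of the same plates, AL5, AL6, JM6, JM7 and JM8. Each value in the cluster was below all of the others, and the change was -0.89 ± 0.13 (edgeR adjusted p = 0.00229). Ndufa12 (-0.81 ± 0.20) and Atp5o (-0.55 ± 0.12) were lower on 5 of 5 plates. In cluster 9, 6 of 77 were lower, against 0.774% of genes, led by Ndufs7 (-0.94 ± 0.19), a core subunit of complex I, which stood at 433, 348, 341 and 317 CPM against 686, 670, 557 and 471. Atp5h stood at 1144, 990, 1173 and 656 CPM against 2125, 1837, 1578 and 938 (-0.90 ± 0.16, edgeR adjusted p = 0.00741). Ndufs7 did not overlap between cluster 9 and the others and Atp5h did, through the level of plate JM8. The other 4 were Ndufv2 (-0.90 ± 0.21), Uqcrh (-0.86 ± 0.19), Atp5a1 (-0.79 ± 0.17) and Cox5a (-0.74 ± 0.17), each lower on 4 of 4 plates. The median over members in cluster 9 was -0.49, above that of all genes at -0.82.

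In cluster 10, 7 of 77 members were lower, against 3.55% of genes, with medians of -0.32 over members and -0.64 over all genes. Cox6a1 stood at 43.0 to 459 CPM (median 274) against 163 to 801 (median 429), lower on 7 of 7 plates (-0.99 ± 0.19, edgeR adjusted p = 0.0041). Sdhb stood at 195 to 511 CPM (median 280.0) against 473 to 700.1 (median 518), lower on 7 of 7 (-0.99 ± 0.17, adjusted p = 0.00157), and Atp5o at 347 to 858 (median 784) against 946 to 1319 (median 1085), lower on 7 of 7 (-0.90 ± 0.14, adjusted p = 0.000616). Only Atp5o of these did not overlap. In clusters 2, 4, 8, 12, 13 and 15 edgeR called 0 members, where all genes were called at 1.26%, 0.67%, 0.0734%, 1.92%, 1.4% and 1.88%, and 5, 15, 12, 3, 12 and 5 members had an unadjusted p under 0.05. The last counts are 6.49%, 19.7%, 15.4%, 3.95%, 15.8% and 6.58% of members, against 12.3%, 11.9%, 9.36%, 12.3%, 12.4% and 13.8% of genes. DESeq2 called 1 member lower in each of clusters 2, 4 and 8, against 6.09%, 2.62% and 2.01% of genes, and 0 in clusters 12, 13 and 15. Over the 12 clusters 17 calls were higher and 16 lower. The choice of scaling moved this split, to 25 and 7 with DESeq2 size factors and 11 and 10 with totals freed of Oxt and Avp, which are relative, and to 71 and 130 with spike-in totals, which set each sum against added RNA. DESeq2 itself gave 33 and 22. The shares over all genes under these settings are not given here. A change of scaling moves every gene, so these splits are not results about the members alone.

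Outside the PVH, cluster 6 had enough plates for a test and 3 of 76 members (3.95%) were lower, close to the 3.77% of all genes. Cox7a2l stood at 312, 483, 208, 371 and 195 CPM against 522, 477, 461, 655 and 486 in PVH cells of plates Q5, Q6, Q7, JM6 and JM8, lower on 4 of 5 (-1.01 ± 0.23, edgeR adjusted p = 0.00945). Cox7c (-0.85 ± 0.25) and Atp5a1 (-0.76 ± 0.18) were lower on 5 of 5, and leaving out any 1 of the 5 plates left 0 or 1 member. Cluster 11 had 3 or more cells on 2 plates and cluster 5 on none, so neither was tested.

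Shares within pairs of related subunits do not depend on how libraries are scaled. Of the pairs and the Atp5g trio with enough UMIs, 6 shares were tested between clusters 1 to 4 and the other PVH clusters by an exact two-sided permutation test that swaps both sides within a plate, for which the smallest p at 10 plates is 0.00195. Cox7a1 made up 1.66% ± 0.437 of Cox7a1 and Cox7a2 UMIs in clusters 1 to 4 (SD, n = 10) and 0.648% ± 0.393 in the others. It was higher on 10 of 10 plates (exact permutation p = 0.00195, adjusted over 6 shares p = 0.0117). The smallest difference between both sides was on plate Q5, at 1.73% against 1.35%, and the largest on Q8, at 2.33% against 0.496%. By cluster, its mean share ran from 1.84% ± 0.465 in cluster 1 and 1.88% ± 1.41 in cluster 2 down to 0.0447% in cluster 12. In cluster 8 it was 0 of 6601 UMIs, which allows up to 0.0454%, and in cluster 13 it was 0 of 396, which allows up to 0.758%. Cox7a2, the common form, thus made up most of subunit VIIa UMIs in each cluster. The cluster means come from different plates, since cluster 2 had 48 of 53 cells on Q plates and cluster 12 had 0. In clusters 1 to 4 the Cox7a1 share was 1.73% to 2.33% on Q plates and 0.946% to 1.94% on the others. The order of clusters thus mixes cluster with prefix.

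Cox6b2, the testis-type form of subunit VIb, made up 0.0438% ± 0.0718 of Cox6b1 and Cox6b2 UMIs in clusters 1 to 4 and 0.311% ± 0.330 in the others, lower on 7 plates and at 0 on both sides on 3 (exact permutation p = 0.0156, adjusted p = 0.0469). It rests on 103 UMIs in 13 cells, near the level floor. That floor may have been passed through the clusters where its share is higher. Leaving out any of the 7 plates that differ raised its adjusted p to 0.0625 or more. Cox7b2 made up 0.821% ± 0.982 of Cox7b and Cox7b2 UMIs against 0.295% ± 0.364 (exact permutation, adjusted p = 0.199). The 3 genes of the Atp5g trio encode the same mature c subunit of the proton-driven ring and differ in their import signals. Atp5g3 made up 69.3% ± 6.21 against 67.2% ± 5.29, Atp5g1 28.9% ± 6.71 against 30.6% ± 5.87 and Atp5g2 1.81% ± 0.639 against 2.23% ± 0.742 (exact permutation, adjusted p = 0.216, 0.281 and 0.0742). Their differences of 2.10 ± 4.62, -1.67 ± 4.73 and -0.42 ± 0.533 percentage points (SD over plates) did not pass. Cox4i2, Cox6a2 and Cox8b, at 5, 38 and 0 UMIs, were too few to test.

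**Figure D5:**
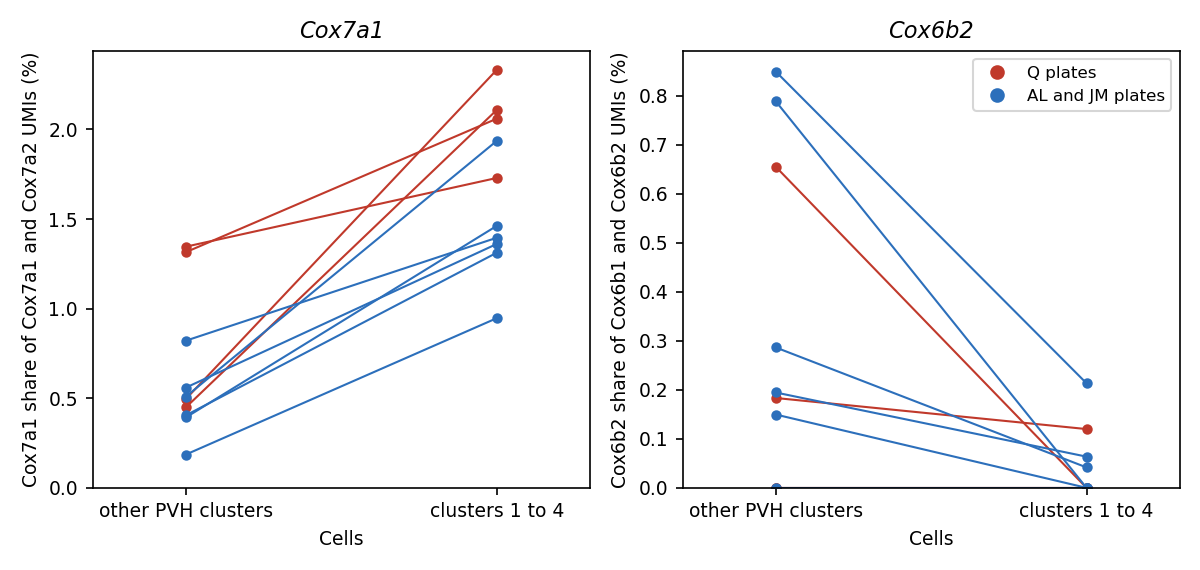
Share of Cox7a1 among Cox7a1 and Cox7a2 UMIs (left) and of Cox6b2 among Cox6b1 and Cox6b2 UMIs (right), in % on the vertical axes, for the other PVH clusters and clusters 1 to 4 on the horizontal axes. Each line joins both values of a plate, red for Q and blue for AL and JM. Cox7a1 lines rise on 10 of 10 plates, and Cox6b2 lines fall on 7 and stay at 0 on 3.

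Genes that serve or surround the chain were taken from lists chosen as background, and their counts are to be read against all genes in the same fits, of which 7.53% were higher and 6.51% lower in clusters 1 to 4. Of 13 subunits encoded by mitochondrial DNA, 8 could be tested, 0 differed in clusters 1 to 4 (edgeR, 0 at an unadjusted p under 0.05, median log2 fold change 0.04), 4 were higher in cluster 1 and 1 was lower on Q plates (median -0.07). Of 46 assembly factors tested, 3 were higher and 2 lower in clusters 1 to 4. Sdhaf3, which helps to assemble complex II, was higher by 1.21 ± 0.21 (edgeR adjusted p = 0.000581), and Cox11, which delivers copper to complex IV, was lower by a log2 change of -0.98 ± 0.22 (adjusted p = 0.00544). Of 16 citrate cycle genes 1 was higher and 0 lower in clusters 1 to 4. Of 16 glycolysis genes 3 were higher and 1 lower, among them the enolase Eno1 (0.54 ± 0.09, edgeR adjusted p = 0.000419) and the glucose phosphate isomerase Gpi1 (0.35 ± 0.06, adjusted p = 0.000238). Of 9 carriers and creatine kinases 1 was higher, the cytosolic creatine kinase Ckb (0.32 ± 0.07), and 2 were lower, the mitochondrial creatine kinase Ckmt1 (-0.51 ± 0.11) and the ADP/ATP carrier Slc25a5 (-0.63 ± 0.13). Of 9 regulators such as Ppargc1a and Nrf1 0 passed (edgeR, 2 at an unadjusted p under 0.05), as did 0 of 3 uncoupling proteins (1 at an unadjusted p under 0.05), and of 76 mitochondrial ribosome genes 6 were higher and 1 lower. The share that was higher lay close to that of all genes for both assembly factors and mitochondrial ribosome genes.

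On Q plates, where 11.6% of all genes were higher and 11.1% lower, the lists split. Mitochondrial ribosome genes were higher for 44 of 76 (2 lower, median 0.53) and assembly factors for 13 of 46 (4 lower, median 0.10). Citrate cycle genes were lower for 8 of 16 (2 higher, median -0.48) and glycolysis genes for 11 of 16 (1 higher, median -0.52). Of carriers and creatine kinases 2 were higher and 3 lower of 9, and 0 of 10 regulators and 0 of 3 uncoupling proteins passed (edgeR, 3 and 0 at an unadjusted p under 0.05). These medians stand beside 0.99 for the members and -0.04 for all genes in the same fit.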

How the data were processed

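The authors deposited raw UMI counts per gene and well for 960 wells on 10 plates, counts of ERCC spike-in RNA, and a table of kept cells with cluster numbers. The submitters' processing notes name Trimmomatic 0.36, STAR 2.5.3a and GRCm38.p5. How UMIs were collapsed is not given in the sources used here. Counts were read as deposited and summed per plate and cell group with at least 3 cells, and a single cluster needed 3 plates. Sums were tested with edgeR 4.0.16 (TMM scaling, genes kept by filterByExpr, the quasi-likelihood F test, a trended dispersion estimated robustly, and a plate block where both groups lie on a plate) under R 4.3.3, with Benjamini-Hochberg adjustment over all genes tested and a threshold of 0.05. DESeq2 1.42.0 and limma 3.58.1, on the mean over cells of log2(CPM + 1), were alternatives. Shares were tested with exact permutation tests. Sums, motifs and figures used Python 3.11.15, pandas 2.3.3, numpy 2.4.6 and matplotlib 3.10.9. Gene coordinates and lengths came from GENCODE vM21 and promoters from RefSeq. Plates share a number across prefixes in the titles only, so the block was the plate itself, whose 2 sums come from different cells of that plate. The count tests were run on simulated counts, drawn from a single mean profile with no plate or prefix effect apart from the changes put in. These data do have such effects, so the simulation does not show how the tests behave here. Doublets were not called, since cells were picked by hand. Intervals and limits cover counting error alone.

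Members and lists were chosen with earlier results of these data known. Named were, in each complex, the highest and lowest member, the 10 with the smallest p among clusters, up to 8 per direction in clusters 1 to 4, up to 3 per direction in each cluster and between prefixes, all paralogous subunits, symbols below the floor, and Atp5s, Atp5sl and Ndufa4. The naming of any other gene came after its values had been seen. The lists beside the members were mitochondrially encoded subunits, assembly factors, citrate cycle, glycolysis, regulators, carriers and creatine kinases, uncoupling proteins and mitochondrial ribosome. Membership values of the cluster table and the list of well barcodes were not used here.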

Additional observations from a re-analysis of the deposited data

Results flagged for a closer look

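Of 24 groups of plates checked, 2 held a value that stood apart from the rest, and chance does this in about 1 in 20 groups. For Ndufa1, the ratio of CPM in clusters 1 to 4 over the other PVH clusters was 2.10 on plate JM5, where the nearest of the other 9 plates had 1.38. Without JM5 the count of members higher in clusters 1 to 4 was 5 in place of 7. For Sdha, plate Q7 had 314 CPM where the nearest of the other 3 Q plates had 243, and it still lay below the 6 AL and JM plates.

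The 254 wells outside the table of kept cells enter no comparison. They held UMIs of the members, with a median of 601.5 per well (0 to 10503), against a median of 4324.5 (363 to 48069) in the 706 kept cells.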

How the results depend on the processing

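The count of members that differed among PVH clusters was 32, and became 21 with DESeq2 size factors, without the filter on low counts or with limma, 69 with spike-in totals, 20 after thinning, 3 on Q plates alone and 15 on AL and JM plates alone. Leaving out a plate gave 17 to 30, with 17 without Q5, 19 without AL5 and 20 without AL6, JM6 or Q6. For clusters 1 to 4 the count was 7, and became 57 with spike-in totals, 1 on Q plates, 3 on AL and JM plates, 3 after thinning, and 2 with cluster 12 joined. Leaving out a plate gave 2 to 7. The single clusters together had 33 calls, which became 21 with totals freed of Oxt and Avp, 201 with spike-in totals, 55 with DESeq2, 3 on Q plates (7 clusters testable) and 12 on AL and JM plates (9 clusters). Leaving out a plate gave 19 (without Q5) to 38, and without Q7 21. Cluster 6 had 3 calls, 1 with DESeq2 and 5 without the filter, and 0 (without JM8) or 1 when a plate was left out. The 60 calls between prefixes stayed between 52 and 63 in every alternative, with 54 to 63 when a plate was left out. The magnocellular difference between prefixes had 0 calls, 2 with DESeq2 and 1 without the filter. Of shares, 2 passed and 0 on Q plates or on AL and JM plates alone, where few plates limit the smallest p. Leaving out a plate gave 1 to 2, with 1 without Q6, Q7, AL6, JM6, JM7 or JM8. Fewer plates and fewer cells lower the counts by construction in part, and otherwise the cause was not tested. Most counts in this section stand without the share over all genes, which moves with the setting too. Among clusters that share was 21.2%, and 3.21% on Q plates and 14.6% on AL and JM plates. For clusters 1 to 4 the share higher was 7.53%, and 24.5% with spike-in totals. The changes in count are thus not results about the members alone.

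Without the plate as a block, the count was 27 among clusters, 1 for clusters 1 to 4 and 5 over single clusters. Of 818 values of 46 single-gene results under alternatives, 635 kept their direction and side of the threshold, 181 kept their direction and lost the threshold, 2 gained it (the Atp5g2 share) and 0 turned direction. Low levels limit Cox6b2, Cox7b2 and Cox7a1, and thinning left out 71 cells, 70 of them on AL and JM plates.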
